A study of Homo sapiens with 28 samples.

Results

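The genes described here are 37 genes of autophagy and of the lysosome, taken by their symbols from a count table of 61815 human genes, and each of the 37 was found once and tested in every comparison. The table came from LNCaP, an androgen-responsive human prostate cancer cell line, held before treatment for 72 h in charcoal-stripped serum, a medium poor in androgen. In the first experiment the cells received 0.1% DMSO as vehicle, 1 µM Senexin B, 0.1 nM R1881 or both agents for 24 h, with 3 libraries in each of the 4 groups. In the second experiment they received 0.1% DMSO, 500 nM SNX631, 1 nM R1881 or both agents for 72 h, with 4 libraries in each of the 4 groups. R1881 is a synthetic androgen, and Senexin B and SNX631 are inhibitors of the Mediator kinases CDK8 and CDK19. All 8 groups share the same wild-type line and the serum-stripped medium. The study states that its RNA sequencing used at least 3 biological replicates per condition. Nothing in the labels says whether libraries of a group came from separate cultures, so p-values measure the spread between these libraries. The experiments differed in duration, androgen dose and inhibitor together, and these cannot be told apart. The study's own text gives a different Senexin B concentration from the sample labels, which are followed here.

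Autophagy delivers cytoplasm, protein aggregates and organelles to the lysosome. A kinase complex built on ULK1 starts the process, a lipid kinase complex around BECN1 and PIK3C3 marks the site, and WIPI and ATG2 proteins with ATG9A supply lipid to the growing membrane. A conjugation machinery resembling that of ubiquitin, in which ATG7 activates and ATG3 transfers, then attaches ATG8 proteins such as MAP1LC3B and GABARAP to the membrane lipid, cargo receptors such as SQSTM1 and NBR1 bring the load, and lysosomal cathepsins digest it. TFEB and TFE3 are the transcription factors best known for driving lysosomal and autophagy genes through E-box motifs. The nutrient sensor mTORC1 restrains the process and AMPK promotes it, and loss of androgen is known to alter autophagy in prostate cancer cells.

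Library totals ran from 9846595 to 15248512 counts, apart from vehicle 24 h replicate 3 with 33809419. The line carried its luminal markers: FOLH1, the prostate-specific membrane antigen, stood at 1489 ± 21.9 CPM (SD, n = 3) in vehicle at 24 h and 1395 ± 11 CPM (n = 4) in vehicle at 72 h. The androgen targets KLK3 and TMPRSS2 were 6.15 and 3.72 higher on the log2 scale with R1881 at 24 h, and 6.57 and 4.10 higher at 72 h. Of 9 markers of basal, blood, endothelial, stromal and neuroendocrine cells, COL1A1 alone exceeded a group mean of 1.01 CPM. KRT5, KRT14, TP63, PTPRC, PECAM1, COL1A2 and CHGA stayed at or below 0.357 CPM in every group. The summed level of the other 8 ranged from 0.429 to 1.19 CPM, while COL1A1 went from 29.8 CPM in vehicle at 72 h down to 8.18 CPM in R1881 + Senexin B at 24 h and was lower with each inhibitor, and its part in the results was not tested. In bulk RNA, fewer cells of one kind and less RNA per cell cannot be told apart.

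Levels are given as CPM, counts scaled to one common library total after TMM scaling over all 28 libraries, and differences as log2 fold changes from edgeR's quasi-likelihood test with their standard errors (SE). Adjusted p-values follow Benjamini and Hochberg over all genes tested. A gene is said to have risen or fallen when its adjusted p was below 0.01, the FDR limit, and to be past both limits when its fold change was in addition above 1.5.

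The upstream bases of 3 of the genes are shown here because ATG3 and WIPI1 had the largest responses to R1881 and because LAMP1 has the most E-boxes. Capitals mark the E-box CACGTG, which reads the same on both strands, and the half-site AGAACA of androgen response elements, searched on both strands. The sequences are RefSeq windows of GRCh38.p14, numbered from the annotated start, and only stretches outside annotated exons of the gene are given, except for a run of 30 bases at the ATG3 start.
ATG3, bases -250 to -85, chr3:112562047-112562212, minus strand: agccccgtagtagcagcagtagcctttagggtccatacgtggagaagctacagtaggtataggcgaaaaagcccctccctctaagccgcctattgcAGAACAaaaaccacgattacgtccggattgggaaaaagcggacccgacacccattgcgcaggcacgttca
ATG3, bases -19 to 11, chr3:112561952-112561981, minus strand: tCACGTGccgggagagtctagtgtCACGTG
WIPI1, bases -250 to -18, chr17:68457514-68457746, minus strand: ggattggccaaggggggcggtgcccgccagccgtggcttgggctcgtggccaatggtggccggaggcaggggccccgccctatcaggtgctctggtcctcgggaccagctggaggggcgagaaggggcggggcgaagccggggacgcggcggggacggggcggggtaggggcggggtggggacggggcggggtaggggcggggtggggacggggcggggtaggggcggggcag
LAMP1, bases -250 to -1, chr13:113296989-113297238, plus strand: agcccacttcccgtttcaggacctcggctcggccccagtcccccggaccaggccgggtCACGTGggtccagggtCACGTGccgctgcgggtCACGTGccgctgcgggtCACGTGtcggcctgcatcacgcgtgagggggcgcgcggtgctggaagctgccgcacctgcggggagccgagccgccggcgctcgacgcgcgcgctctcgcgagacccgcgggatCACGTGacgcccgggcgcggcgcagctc
The ATG3 window held an AGAACA at -154 and E-boxes at -18 and 6. The LAMP1 window held 6 E-boxes, at -192, -176, -159, -142, -28 and -1, the last of which runs past the printed stretch. Of the 32 genes with a window of 300 bases, 4 held CACGTG (ATG3, ATG14, CTSD and LAMP1), against 7.26% of all 35116 windows. AGAACA was found in ATG3 and PIK3R4, against 14.8% of all windows, and the full palindrome of both half-sites, spaced by 3 bases, was in 0.00285% of all windows and in none of the 32. These are matches of letters and say nothing about binding, and neither motif was found in the WIPI1 window.

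ATG3, the enzyme that transfers ATG8 proteins to phosphatidylethanolamine, had the largest response of the 37 genes (the plot of levels by library). The gene lies at chr3:112532509-112562046 on the minus strand (GENCODE 29, GRCh38). In the 24 h experiment ATG3 stood at 341, 351 and 344 CPM in vehicle and at 96.6, 99.6 and 101 CPM in R1881. In the 72 h experiment the vehicle libraries had 281, 287, 282 and 271 CPM and the R1881 libraries 78.6, 85.9, 84.7 and 82.3 CPM. Every R1881 library was far below every vehicle library in both experiments. The log2 fold change was -1.80 (SE 0.042, adjusted p = 1.25e-26) at 24 h and -1.75 (SE 0.035, adjusted p = 7.70e-33) at 72 h, and the difference between the experiments was 0.05 (SE 0.058, adjusted p = 0.689).

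Both inhibitors raised ATG3 where androgen was absent. Senexin B libraries had 525, 522 and 556 CPM, above every vehicle library of that experiment, a log2 fold change of 0.62 (SE 0.036, adjusted p = 5.97e-15). SNX631 libraries had 519, 523, 493 and 476 CPM, again above every vehicle library, a log2 fold change of 0.85 (SE 0.028, adjusted p = 4.52e-24). With R1881 present the levels remained low, at 110, 128 and 123 CPM with Senexin B and at 94.1, 103, 98.9 and 101 CPM with SNX631. These were still above the R1881 libraries without inhibitor, with log2 fold changes of 0.29 (SE 0.047, adjusted p = 1.76e-05) and 0.26 (SE 0.039, adjusted p = 9.82e-07). The inhibitor effect was thus smaller with androgen than without it. The interaction on the log2 scale was -0.34 (SE 0.059, adjusted p = 0.000334) at 24 h and -0.59 (SE 0.048, adjusted p = 1.09e-11) at 72 h, the latter past both limits. That value lies at the fold limit, and without any one of vehicle replicate 4, SNX631 replicates 1 and 2, R1881 replicates 2 and 3 or R1881 + SNX631 replicate 1 it was -0.57, -0.57, -0.57, -0.57, -0.58 and -0.57, under the fold limit with the FDR limit still passed. With scaling by library totals alone the Senexin B effect without androgen was 0.58, also just under the fold limit.

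**Figure D1:**
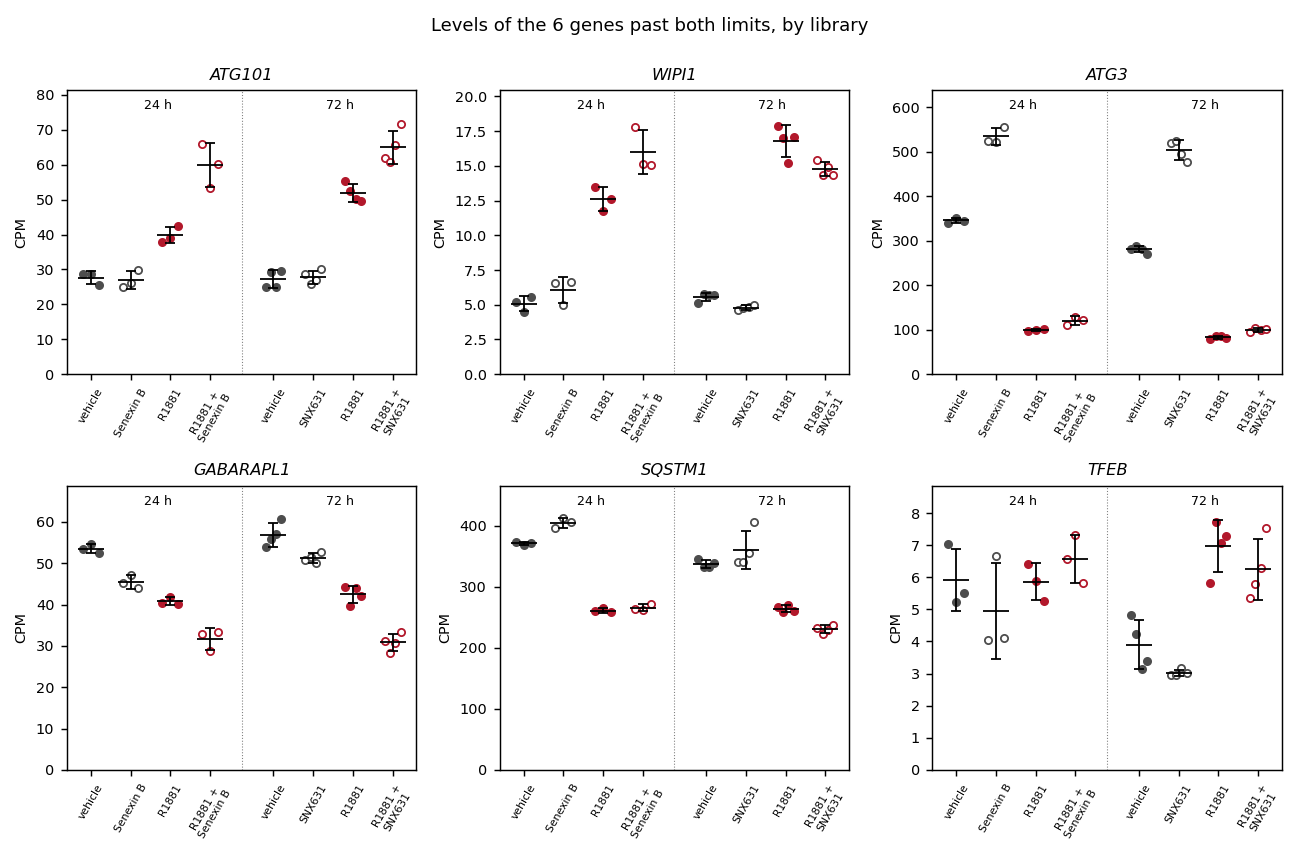
Levels in CPM (linear axis from 0) of the 6 genes past both limits in any comparison within an experiment, for each library of the 8 groups; points are libraries (filled without inhibitor, open with inhibitor, red with R1881), bars are the mean and SD (n = 3 at 24 h, n = 4 at 72 h). ATG3 falls from at least 271 CPM in every vehicle library to 101 CPM or below in every R1881 library without inhibitor. ATG101 reaches its highest levels, 53.4 to 71.6 CPM, with R1881 and an inhibitor together.

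ATG101, a subunit of the ULK1 kinase complex at chr12:52069246-52077494 on the plus strand, moved the other way. Its vehicle libraries had 28.6, 28.7 and 25.5 CPM at 24 h and its R1881 libraries 38.0, 39.0 and 42.5 CPM, a log2 fold change of 0.56 (SE 0.074, adjusted p = 9.64e-08). At 72 h the vehicle libraries had 25.0, 29.3, 24.9 and 29.5 CPM and the R1881 libraries 55.4, 52.5, 50.3 and 49.5 CPM, a log2 fold change of 0.93 (SE 0.062, adjusted p = 5.70e-16). The groups did not overlap at either time. The 24 h value was just under the fold limit and came to 0.59, 0.60, 0.60 and 0.59 without vehicle replicate 1 or 2 or R1881 replicate 1 or 2.

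Without androgen, the ATG101 levels with and without inhibitor overlapped. The log2 difference was -0.01 (SE 0.078, adjusted p = 0.942) for Senexin B, with 25.0, 26.3 and 29.7 CPM, and 0.03 (SE 0.069, adjusted p = 0.802) for SNX631, with 28.6, 25.7, 26.9 and 30.0 CPM. On top of R1881, Senexin B took ATG101 to 66.0, 53.4 and 60.2 CPM, 0.60 above R1881 alone on the log2 scale (SE 0.069, adjusted p = 4.51e-08). SNX631 on top of R1881 gave 62.0, 60.9, 65.6 and 71.6 CPM, 0.33 above R1881 alone (SE 0.052, adjusted p = 2.11e-06). ATG101 therefore had its highest level in the combined groups of both experiments. The interaction was 0.61 (SE 0.104, adjusted p = 0.000242) at 24 h, past both limits, and 0.30 (SE 0.086, adjusted p = 0.0155) at 72 h, which missed the FDR limit. Without vehicle replicate 1 or 2, Senexin B replicate 1 or 2, R1881 replicate 1 or 2 or R1881 + Senexin B replicate 1, the 24 h interaction was 0.57, 0.56, 0.54, 0.57, 0.56, 0.57 and 0.52, all short of the fold limit, with an adjusted p of at most 0.00276. The effect of Senexin B on top of R1881 likewise was 0.56, 0.57 and 0.51 without R1881 replicate 1 or 2 or R1881 + Senexin B replicate 1. Of the exon bases of ATG101, 19.2% lie under exons of a gene on the opposite strand.

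WIPI1, which binds the phosphoinositide that marks the forming autophagosome, rose more than any other of the 37 genes with R1881. It was a gene of low level, at 5.22, 4.50 and 5.53 CPM in vehicle and 13.5, 11.8 and 12.6 CPM in R1881 at 24 h. At 72 h it had 5.10, 5.75, 5.70 and 5.72 CPM in vehicle and 17.8, 17.0, 15.2 and 17.1 CPM in R1881. The R1881 libraries were all above the vehicle libraries, by 1.27 (SE 0.117, adjusted p = 4.39e-11) and 1.59 (SE 0.086, adjusted p = 8.95e-19) on the log2 scale. Under the inhibitors the rise was 1.41 (SE 0.117) with Senexin B and 1.62 (SE 0.088) with SNX631. The interactions of 0.13 (SE 0.169, adjusted p = 0.776) and 0.03 (SE 0.130, adjusted p = 0.928) missed the FDR limit. The inhibitor libraries without androgen had 6.53, 4.98 and 6.66 CPM with Senexin B and 4.59, 4.78, 4.82 and 4.97 CPM with SNX631. With R1881 they had 17.8, 15.1 and 15 CPM with Senexin B and 15.4, 14.4, 14.9 and 14.4 CPM with SNX631. On top of R1881, Senexin B raised WIPI1 by 0.35 (SE 0.103, adjusted p = 0.00881), while the value for SNX631 was -0.18 (SE 0.069, adjusted p = 0.033). The difference between the latter inhibitor effects was -0.52 (SE 0.117, adjusted p = 0.00315), in experiments that also differ in time and androgen dose. The gene lies at chr17:68420948-68457513, and 28.1% of its exon bases lie under exons of opposite-strand genes, chiefly ARSG. The library kit marks strand, but whether counting used it is not given in the sources used here.

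TFEB, the transcription factor of lysosomal biogenesis, rose with R1881 in the 72 h experiment. Its 24 h libraries had 7.03, 5.22 and 5.50 CPM in vehicle and 6.41, 5.89 and 5.26 CPM in R1881, which overlap, with a log2 difference of 0.03 (SE 0.156, adjusted p = 0.899). Its 72 h libraries had 4.84, 4.23, 3.15 and 3.40 CPM in vehicle and 5.81, 7.71, 7.07 and 7.30 CPM in R1881, which do not overlap, with a log2 fold change of 0.85 (SE 0.135, adjusted p = 1.07e-06). With SNX631 the libraries went from 2.95, 2.96, 3.16 and 3.03 CPM to 5.36, 5.80, 6.28 and 7.55 CPM when R1881 was added, a log2 fold change of 1.04 (SE 0.141, adjusted p = 3.51e-08). With Senexin B they had 4.05, 6.67 and 4.11 CPM, and 6.57, 7.31 and 5.83 CPM with R1881 added, a log2 difference of 0.43 (SE 0.168, adjusted p = 0.0292). The androgen effect at 72 h exceeded that at 24 h by 0.82 (SE 0.210, adjusted p = 0.00509). In R1881 the level was 5.85 ± 0.576 CPM at 24 h (n = 3) and 6.97 ± 0.82 CPM at 72 h (n = 4), and in vehicle it was 5.92 ± 0.974 CPM and 3.90 ± 0.776 CPM. Each library rested on 34 to 191 counts of TFEB. The difference between times was 0.74, 0.75, 0.74, 0.76, 0.77 and 0.80 without vehicle 24 h replicate 1, R1881 24 h replicate 3, vehicle 72 h replicate 3 or 4 or R1881 72 h replicate 2 or 4, with adjusted p-values from 0.0109 to 0.0218 that miss the FDR limit. TFE3, its relative, had log2 values between -0.11 and 0.05 across the androgen comparisons. TFE3 fell by 0.24 with Senexin B alone (SE 0.049, adjusted p = 0.000271).

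The 4 ATG8 genes shared a direction, with negative log2 values in all 4 androgen and all 4 inhibitor comparisons. Where they passed the FDR limit, the sign was the same under each scaling tried. GABARAPL1 changed most. Its vehicle libraries had 53.4, 54.7 and 52.5 CPM at 24 h, against 45.1, 47.2 and 44.1 CPM with Senexin B, 40.4, 41.8 and 40.1 CPM with R1881 and 32.9, 28.7 and 33.4 CPM with both. At 72 h it had 53.8, 56.0, 57.0 and 60.8 CPM in vehicle, 50.7, 51.4, 49.9 and 52.8 CPM with SNX631, 44.2, 39.6, 44.0 and 42.0 CPM with R1881 and 31.2, 28.2, 30.6 and 33.3 CPM with both. The groups descended in the same order in both experiments, without overlap between neighbours. The log2 fold change of GABARAPL1 with R1881 was -0.39 (SE 0.053, adjusted p = 1.78e-07) at 24 h and -0.43 (SE 0.049, adjusted p = 1.01e-09) at 72 h. Under SNX631 the androgen effect was -0.73 (SE 0.051, adjusted p = 1.19e-15), past both limits, and the interaction at 72 h was -0.31 (SE 0.071, adjusted p = 0.00221). At 24 h the interaction was -0.11 (SE 0.080, adjusted p = 0.519).

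MAP1LC3B, the gene of the most used autophagosome marker, followed the same course with smaller steps, from 79.2 ± 1.11 CPM in vehicle to 60.2 ± 2.11 CPM with R1881 and Senexin B (n = 3) and from 77.0 ± 2.49 to 58.8 ± 2.39 CPM with R1881 and SNX631 (n = 4). It fell with R1881 by 0.19 (SE 0.043) at 24 h and by 0.15 (SE 0.041) at 72 h. GABARAPL2 fell by 0.27 (SE 0.043) and by 0.12 (SE 0.034). GABARAP, the highest of the 37 genes per kilobase of exon, went from 243 ± 4.29 to 229 ± 4.64 CPM with R1881 at 24 h, a log2 value of -0.08 (SE 0.032, adjusted p = 0.0296) that missed the FDR limit, and fell by 0.08 (SE 0.027, adjusted p = 0.00917) at 72 h.

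The cargo receptors SQSTM1 and NBR1, which carry ubiquitinated proteins to the autophagosome, both fell with R1881. SQSTM1 libraries had 374, 369 and 371 CPM in vehicle, 397, 413 and 406 CPM with Senexin B, 260, 265 and 258 CPM with R1881 and 264, 262 and 272 CPM with both. At 72 h they had 346, 333, 332 and 339 CPM in vehicle, 340, 341, 355 and 406 CPM with SNX631, 268, 258, 271 and 260 CPM with R1881 and 233, 224, 230 and 238 CPM with both. No library with R1881 reached the level of any library without it. The androgen effect was -0.51 (SE 0.031, adjusted p = 2.14e-15) at 24 h and -0.35 (SE 0.035, adjusted p = 5.19e-11) at 72 h, and -0.59 (SE 0.031) with Senexin B and -0.64 (SE 0.035) with SNX631, the latter both past both limits. Without R1881 + Senexin B replicate 2 the former was -0.58, and without SNX631 replicate 4 the latter was -0.58, each under the fold limit. The effect of SNX631 on SQSTM1 was -0.19 (SE 0.036, adjusted p = 3.56e-05) with R1881 and 0.10 (SE 0.034, adjusted p = 0.0205) without it, an interaction of -0.29 (SE 0.050, adjusted p = 5.07e-05). Of its exon bases, 22.0% lie under exons of opposite-strand genes.

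NBR1 fell with every agent. It had 263, 262 and 265 CPM in vehicle, 217, 210 and 222 CPM with Senexin B, 194, 179 and 203 CPM with R1881 and 153, 166 and 174 CPM with both at 24 h. At 72 h the values were 264, 271, 271 and 259 CPM in vehicle, 238, 231, 224 and 235 CPM with SNX631, 230, 226, 226 and 217 CPM with R1881 and 195, 189, 187 and 187 CPM with both. The combined groups were the lowest of each experiment, with no overlap with any other group. The log2 effect of R1881 was -0.46 (SE 0.041) at 24 h and -0.24 (SE 0.027) at 72 h, a difference of 0.21 (SE 0.048, adjusted p = 0.00147). The inhibitor effects without and with androgen were -0.29 (SE 0.040) and -0.22 (SE 0.044) for Senexin B and -0.19 (SE 0.026) and -0.24 (SE 0.027) for SNX631.

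In the initiation complex, ATG13, the scaffold that binds ULK1, fell with both inhibitors, while its R1881 effect was -0.14 (SE 0.042, adjusted p = 0.00366) at 24 h and 0.04 (SE 0.032, adjusted p = 0.314) at 72 h. It had 96.0, 100 and 101 CPM in vehicle, 79.0, 80.8 and 75.8 CPM with Senexin B, 92.6, 92.2 and 84.9 CPM with R1881 and 73.2, 70.3 and 73.2 CPM with both. At 72 h it had 105, 103, 105 and 98.3 CPM in vehicle, 84.7, 87.2, 88.7 and 87.5 CPM with SNX631, 108, 105, 105 and 103 CPM with R1881 and 90.4, 92.9, 90.7 and 94.6 CPM with both. Every library with an inhibitor was below every library of its experiment with the same androgen state and no inhibitor. The log2 effects were -0.35 (SE 0.042) and -0.31 (SE 0.046) for Senexin B without and with R1881, and -0.23 (SE 0.033) and -0.19 (SE 0.032) for SNX631. The kinase ULK1 fell with Senexin B by 0.19 (SE 0.043) without and by 0.32 (SE 0.047) with R1881, and with SNX631 by 0.27 (SE 0.038) in the presence of R1881, where the value without it was -0.02 (SE 0.037, adjusted p = 0.651) and the interaction -0.25 (SE 0.052, adjusted p = 0.000842). Its paralog ULK2 rose with Senexin B by 0.32 (SE 0.052) and 0.22 (SE 0.058), and by 0.19 (SE 0.051) with SNX631 on top of R1881. RB1CC1, the large scaffold of the complex, fell with R1881 by 0.41 (SE 0.042) at 24 h and by 0.37 (SE 0.036) at 72 h and rose with each inhibitor alone, by 0.23 (SE 0.039) and 0.17 (SE 0.033), the directions in which ATG3 moved.

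**Figure D2:**
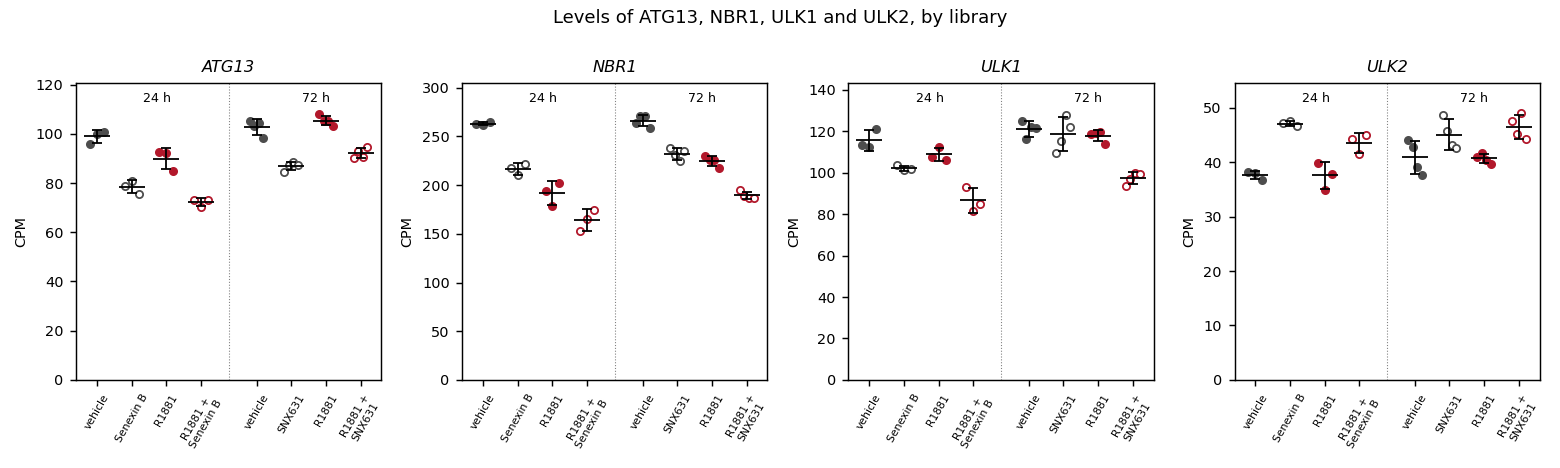
Levels in CPM (linear axis from 0) of ATG13 and NBR1, which with ATG3 and GABARAPL1 had the largest mean inhibitor effects of one sign, and of the kinase genes ULK1 and ULK2, added after their values were seen; points are libraries, filled without and open with inhibitor, red with R1881, and bars are the mean and SD (n = 3 at 24 h, n = 4 at 72 h). ATG13 is lower in every inhibitor library than in the matching libraries without inhibitor, and NBR1 is lowest in the combined groups, between 153 and 195 CPM.

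None of the 5 nucleation genes was past both limits in any comparison. BECN1, the core of the lipid kinase complex, lay between -0.08 and 0.02 on the log2 scale in the androgen comparisons and between -0.07 and 0.01 in the inhibitor comparisons, and passed the FDR limit in none of the 13 comparisons. PIK3C3, the catalytic subunit, fell by 0.19 (SE 0.059, adjusted p = 0.00548) with R1881 at 72 h. PIK3R4, its regulatory partner, rose by 0.24 (SE 0.040) with R1881 in the presence of SNX631. ATG14, which directs the complex to autophagy, went from 23.3 ± 1.44 to 18.9 ± 0.438 CPM with R1881 at 72 h (n = 4), a log2 fold change of -0.30 (SE 0.064), and changed by -0.54 (SE 0.062) with R1881 under SNX631, which was -0.64 and past both limits with library totals as the scaling. UVRAG rose by 0.31 (SE 0.097, adjusted p = 0.00974) with SNX631 in the presence of R1881.

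Among the genes of membrane supply, WIPI2 rose with R1881 by 0.26 (SE 0.041) at 24 h and 0.27 (SE 0.037) at 72 h, far less than its relative WIPI1. ATG2A and ATG2B, the lipid transfer proteins, fell with R1881 at 24 h by 0.51 (SE 0.051) and by 0.28 (SE 0.068), and at 72 h by 0.24 (SE 0.044) and by 0.29 (SE 0.052). ATG9A, the lipid scramblase, had its highest levels, like ATG101, in the combined groups. It stood at 58.2 ± 2.42 CPM in vehicle, 61.3 ± 1.69 CPM with R1881, 58.9 ± 1.86 CPM with Senexin B and 73.3 ± 3.56 CPM with both (n = 3). At 72 h the means were 52.7 ± 2.38, 56.5 ± 1.33, 49.8 ± 1.50 and 66.4 ± 2.97 CPM in the corresponding order with SNX631 (n = 4). The inhibitor effect in the presence of R1881 was 0.27 (SE 0.049) and 0.23 (SE 0.041), and the interaction was 0.25 (SE 0.068, adjusted p = 0.0265) at 24 h and 0.31 (SE 0.060, adjusted p = 0.000301) at 72 h. Of the ATG9A exon bases, 38.8% lie under exons of another gene model on the same strand.

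Of the other 5 conjugation genes, none was past both limits in any comparison. ATG7, the activating enzyme, lay between -0.08 and 0.05 and ATG16L1 between -0.10 and 0.01 across the androgen comparisons, and neither passed the FDR limit in any comparison. ATG12 lay between -0.15 and 0.03 and passed in none. ATG5 rose by 0.32 (SE 0.050) with R1881 under SNX631 and fell by 0.20 (SE 0.051) with SNX631 alone. ATG10, the second transfer enzyme, fell with R1881 at 72 h by 0.56 (SE 0.108, adjusted p = 2.67e-05) on uneven vehicle libraries of 23.3 ± 5.87 CPM (n = 4), and the value was -0.67, -0.62 and -0.63, past both limits, without vehicle replicate 2, vehicle replicate 4 or R1881 replicate 4. Of the ATG4 proteases, which cut ATG8 proteins before conjugation and release them after it, ATG4D rose with R1881 by 0.24 (SE 0.064) at 24 h and 0.24 (SE 0.060) at 72 h. ATG4C fell with R1881 at 72 h by 0.35 (SE 0.070) and rose with SNX631 on top of R1881 by 0.36 (SE 0.068), which brought it from 15.4 ± 1.21 to 19.8 ± 0.549 CPM, near the 19.7 ± 1.39 CPM of vehicle. ATG4A fell with R1881 at 24 h, by 0.21 (SE 0.062, adjusted p = 0.00436), and ATG4B rose at 72 h, by 0.15 (SE 0.050, adjusted p = 0.0073).

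None of the 4 lysosomal genes was past both limits. CTSB, a cathepsin, fell with R1881 by 0.28 (SE 0.034) at 24 h and by 0.14 (SE 0.029) at 72 h, and LAMP2, a membrane protein of the lysosome, by 0.12 (SE 0.032) and by 0.19 (SE 0.026). LAMP1 fell by 0.15 (SE 0.037, adjusted p = 0.000835) at 24 h and had a value of -0.07 (SE 0.033, adjusted p = 0.0748) at 72 h. Senexin B raised LAMP1 by 0.13 (SE 0.035) without and 0.15 (SE 0.038) with R1881, from 167 ± 4.89 to 183 ± 3.35 CPM and from 150 ± 5.07 to 166 ± 4.92 CPM (n = 3). The SNX631 values of LAMP1 were -0.03 (SE 0.033) and 0.03 (SE 0.033). CTSD fell by 0.13 (SE 0.041, adjusted p = 0.00574) with R1881 in the presence of Senexin B, and by 0.09 (SE 0.029, adjusted p = 0.00809) with SNX631 on top of R1881.

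**Figure D3:**
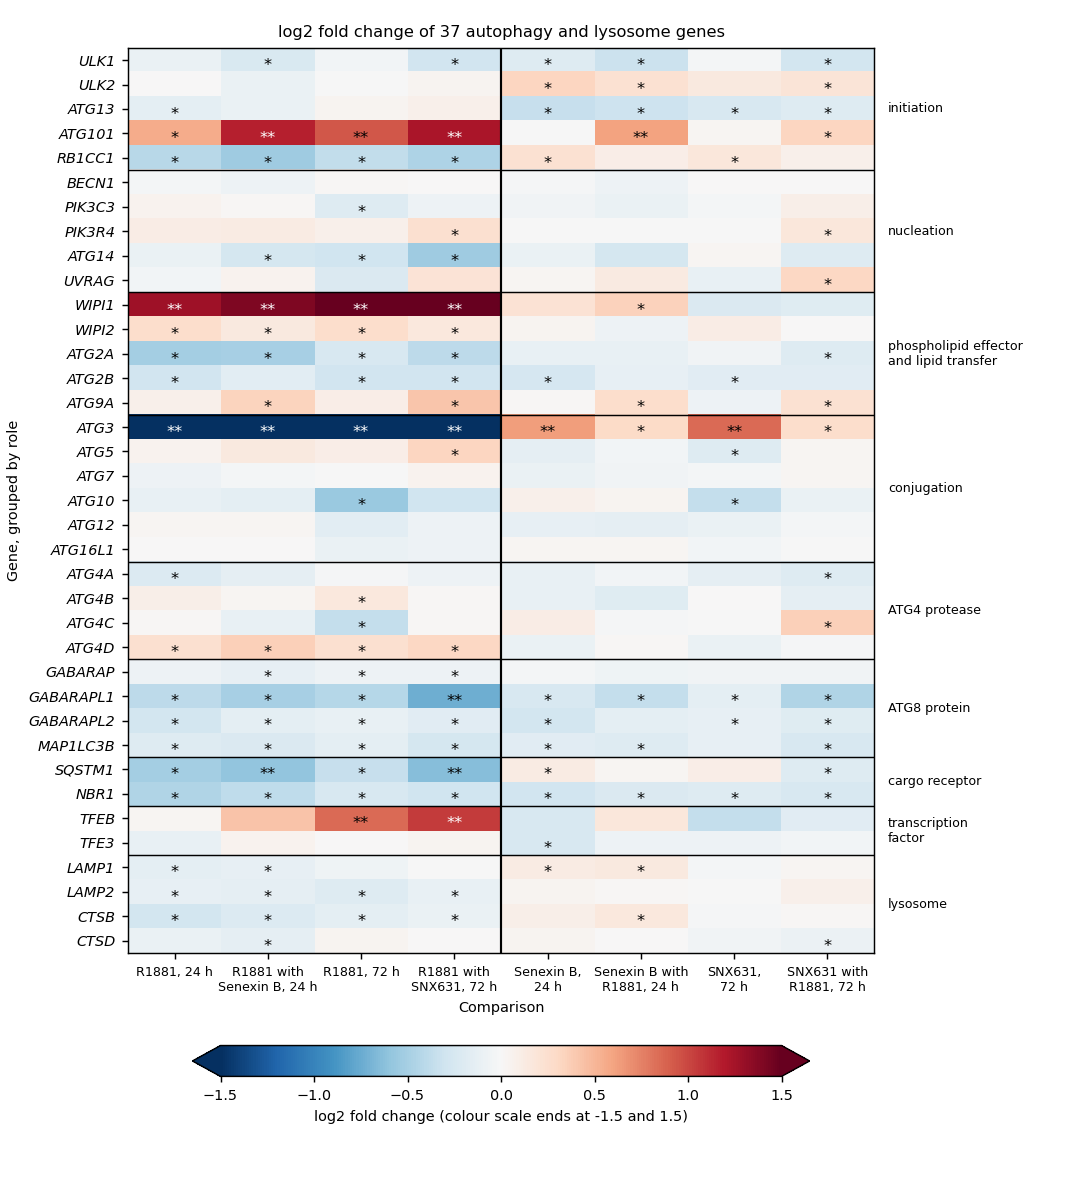
log2 fold changes of the 37 genes (rows, grouped by role) in the 4 androgen comparisons (left) and the 4 inhibitor comparisons (right), red for higher and blue for lower; 1 star marks an adjusted p below 0.01 and 2 stars a fold change above 1.5 as well, and colours stop at -1.5 and 1.5. ATG3 is the only row that is blue on the left and red in all 4 columns on the right with 2 stars on both sides, and the ATG8 rows are blue throughout.

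Counted over the 37 genes, R1881 alone at 24 h took 1 gene up past both limits (WIPI1) and 1 down (ATG3), where 9.81% and 9.16% of all genes tested were past them. The FDR limit alone was passed by 4 genes that rose and 14 that fell, against 26.2% and 22.1% of all genes, so that the falls make up 37.8% of the 37. The median log2 value was -0.10, against -0.02 over all genes. At 72 h, 3 genes were past both limits upward (ATG101, WIPI1 and TFEB) and 1 downward (ATG3), against 9.68% and 10.1% of all genes. By the FDR limit alone 6 rose and 16 fell, against 27.6% and 24.6%, with a median of -0.08 against -0.01. By the FDR limit alone, 10.8% of the 37 rose and 37.8% fell at 24 h, and 16.2% rose and 43.2% fell at 72 h. The falls thus lie above the shares of all genes and the rises below them. Past both limits the counts are small, and the 3 upward at 72 h are near the share of all genes. None of these counts was tested against the shares.

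In the presence of an inhibitor the counts for R1881 were close to these. With Senexin B, 2 genes were past both limits upward (ATG101 and WIPI1) and 2 downward (ATG3 and SQSTM1), against 9.94% and 8.94% of all genes, and 5 rose and 15 fell by the FDR limit alone, against 26.2% and 21.3%. With SNX631, 3 were past both limits upward (ATG101, WIPI1 and TFEB) and 3 downward (ATG3, GABARAPL1 and SQSTM1), against 10% and 11.9%, and 8 rose and 14 fell by the FDR limit alone, against 29.8% and 27.4%.

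The 2 experiments share no libraries, so their results can be set beside each other. Of the 18 genes past the FDR limit with R1881 at 24 h and the 22 at 72 h, 15 were common to both and all 15 had the same direction, 4 upward and 11 downward, which is 83.3% of the first list and 68.2% of the second. Over all genes tested in both experiments, the overlap was 81% and 74.7% of the corresponding lists, with 99.5% in the same direction, so the 37 genes lay near the background. Across the 37 genes log2 values at 24 h and at 72 h correlated with Pearson r = 0.899, against 0.905 over all genes, which are descriptions over genes that share the libraries of each experiment. The androgen effect differed between the experiments past both limits for 1 gene, TFEB, against 1.89% of all genes.

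**Figure D4:**
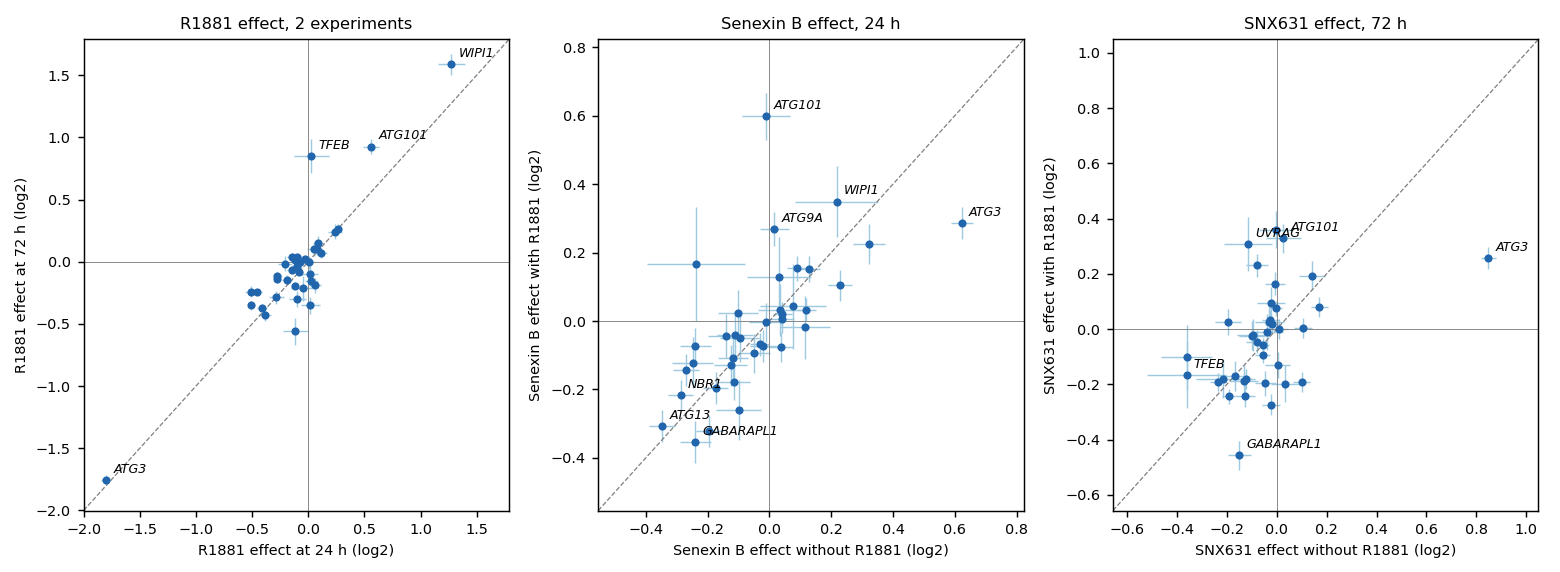
log2 effects of the 37 genes with their SE; left, R1881 at 24 h against R1881 at 72 h, middle and right, the effect of Senexin B and of SNX631 without R1881 (horizontal) against the effect with R1881 (vertical), with the dashed line marking equal effects. TFEB stands above the line on the left (0.03 against 0.85), ATG3 lies below the line and ATG101 above it in the middle panel and in the right one.

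The inhibitors took few of the 37 genes past both limits. Senexin B did so without androgen for 1 gene, ATG3, against 3.76% of all genes, and with androgen for 1 gene, ATG101, against 3.12%. SNX631 did so without androgen for 1 gene, ATG3, against 4.76%. With androgen it did so for 0 of the 37, against 4.11%, and DESeq2 also called 0. There 24 of the 37 had an unadjusted p below 0.05, and the share of all genes at that limit was not counted. By the FDR limit alone, 5 genes rose and 8 fell with Senexin B without androgen, against 13.4% and 11.7% of all genes, and 7 rose and 5 fell with androgen, against 12.7% and 9.99%. With SNX631, 2 rose and 7 fell without androgen, against 14.3% and 12.5%, and 7 rose and 10 fell with androgen, against 17.8% and 15.4%. The interaction was past both limits for 1 gene at 24 h, ATG101, against 0.583% of all genes, and for 1 gene at 72 h, ATG3, against 1.19%.

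Without androgen, 7 genes were past the FDR limit with both inhibitors, all in the same direction: ATG3 and RB1CC1 upward and ATG13, ATG2B, GABARAPL1, GABARAPL2 and NBR1 downward, which is 53.8% of the 13 with Senexin B and 77.8% of the 9 with SNX631. Over all genes the overlap was 64.2% and 59.6%, with 99.6% in the same direction. With androgen, 9 were common, again in the same direction: ULK2, ATG101, ATG9A and ATG3 upward and ULK1, ATG13, GABARAPL1, MAP1LC3B and NBR1 downward, which is 75% of the 12 with Senexin B and 52.9% of the 17 with SNX631, close to the 74% and 50.3% over all genes, where 99.4% had the same direction. The difference between the inhibitor effects was past both limits for 0 of the 37 genes in either androgen state, by edgeR and DESeq2. Of all genes, 0.461% were past both limits without androgen and 0.204% with it. At an unadjusted p below 0.05 there were 11 and 9 of the 37, and the share of all genes there was not counted. Past the FDR limit, ATG3 had a larger effect of SNX631 without androgen, by 0.22 (SE 0.047, adjusted p = 0.00246), and SQSTM1 a lower one with androgen, by -0.22 (SE 0.052, adjusted p = 0.00589), beside WIPI1 above. The doses and times of the inhibitors were not matched.

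Per kilobase of exon, the genes in vehicle spanned from 107 ± 1.89 CPM per kilobase for GABARAP to 1.05 ± 0.172 for TFEB at 24 h (n = 3), and from 101 ± 1.14 to 0.691 ± 0.137 at 72 h (n = 4). ATG3 ranked 2 of 37 in vehicle in both experiments, with 56.5 ± 0.825 and 45.8 ± 1.12 CPM per kilobase, close above CTSD at 24 h and LAMP2 at 72 h, whose 45.5 ± 0.293 lies within the spread of ATG3. With R1881 it ranked 10 at 24 h and 14 at 72 h, with 16.2 ± 0.370 and 13.6 ± 0.525 CPM per kilobase. Same-strand gene models overlap 30.5% of the GABARAP and 41.7% of the CTSD exon bases.

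The wider pathway was counted in 7 further lists. Beside all counts with R1881 alone stand the shares of all genes tested: past both limits, 9.81% upward and 9.16% downward at 24 h and 9.68% and 10.1% at 72 h, and past the FDR limit alone, 26.2% and 22.1% at 24 h and 27.6% and 24.6% at 72 h. No list was tested against these shares. Among 20 tested genes of other core autophagy, R1881 alone took VMP1, a membrane protein that acts in autophagosome formation, up past both limits. Its log2 fold change was 0.77 (SE 0.040) at 24 h and 0.70 (SE 0.033) at 72 h. ATG16L2, a relative of ATG16L1, was past both limits downward, at -0.59 and -0.67. Of 20 tested selective autophagy receptors and their partners, 4 were past both limits downward at 24 h (9.16% of all genes), and 3 downward and 1 upward at 72 h (10.1% and 9.68% of all genes). OPTN, a mitophagy receptor, was at -1.06 and -0.79, and WDFY3, an adaptor for aggregates, at -0.88 and -0.82. With the FDR limit alone, 4 rose and 9 fell at 24 h in this list, and 4 rose and 6 fell at 72 h.

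Of 42 tested lysosomal hydrolases and activators, 2 were past both limits upward and 1 downward with R1881 at 24 h, against 9.81% and 9.16% of all genes. At 72 h, 3 were past them upward and 2 downward, against 9.68% and 10.1%. The protease gene CTSV was at 1.05 and 0.84, and MANBA, a glycosidase, at -0.80 and -1.05. Past the FDR limit, 10 rose and 14 fell at 24 h and 11 rose and 15 fell at 72 h. Lysosomal membrane proteins gave 1 upward and 2 downward past both limits at each time, of 25 tested at 24 h and 24 at 72 h. NPC1, the cholesterol exporter of the lysosome, was at 0.61 and 0.87, LAPTM4B at -0.73 and -0.76 and SLC38A9, the arginine sensor of mTORC1, at -0.59 and -0.65. NPC1 was also the single gene of these lists that both inhibitors took past both limits without androgen, at 0.60 (SE 0.042) and 0.72 (SE 0.037).

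V-ATPase subunits, which acidify the lysosome, had 7 rises and 2 falls among 19 past the FDR limit at 24 h, and 7 rises and 4 falls among 20 at 72 h. Over all genes, rises also outnumbered falls, at 26.2% against 22.1% and 27.6% against 24.6%. In this list, ATP6V0A2 was past both limits at 0.88 and 0.68. In mTORC1, AMPK and Rag signalling, 3 of 28 were past both limits downward at 24 h, near the 9.16% of all genes, and 3 upward and 2 downward at 72 h, against 9.68% and 10.1%. SESN3, a stress-induced brake on mTORC1, was at -1.27 (SE 0.055) and -1.32 (SE 0.030). Past the FDR limit, 5 rose and 12 fell at 24 h and 6 rose and 9 fell at 72 h in this list. Of 5 tested other transcriptional regulators, 0 were past both limits with R1881 alone by edgeR, and DESeq2 called 1 at 24 h and 0 at 72 h. At an unadjusted p below 0.05 there were 2 and 3, and the share of all genes there was not counted. By the FDR limit alone, 1 rose and 1 fell at 24 h, and 2 rose and 1 fell at 72 h.

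With the inhibitors in the absence of androgen, the shares of all genes past the FDR limit were 13.4% upward and 11.7% downward for Senexin B, and 14.3% and 12.5% for SNX631. Of the 28 genes of mTORC1, AMPK and Rag signalling, 9 rose and 0 fell with Senexin B, and 8 rose and 2 fell with SNX631. Of the 20 selective autophagy receptors, 4 rose and 3 fell with Senexin B, and 3 rose and 9 fell with SNX631. Lysosomal membrane proteins had 9 rises and 2 falls among 25 with Senexin B, and 4 rises and 3 falls among 24 with SNX631. Among the 42 hydrolases and activators, 8 rose and 2 fell with Senexin B, and 9 rose and 7 fell with SNX631. Other core autophagy genes had 2 rises and 5 falls among 20 with Senexin B, and 0 rises and 5 falls with SNX631. V-ATPase subunits had 3 rises and 4 falls among 19 with Senexin B, and 0 rises and 4 falls among 20 with SNX631. Of the 5 other transcriptional regulators, 0 rose and 1 fell with Senexin B, and 0 rose and 0 fell with SNX631.

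**Figure D5:**
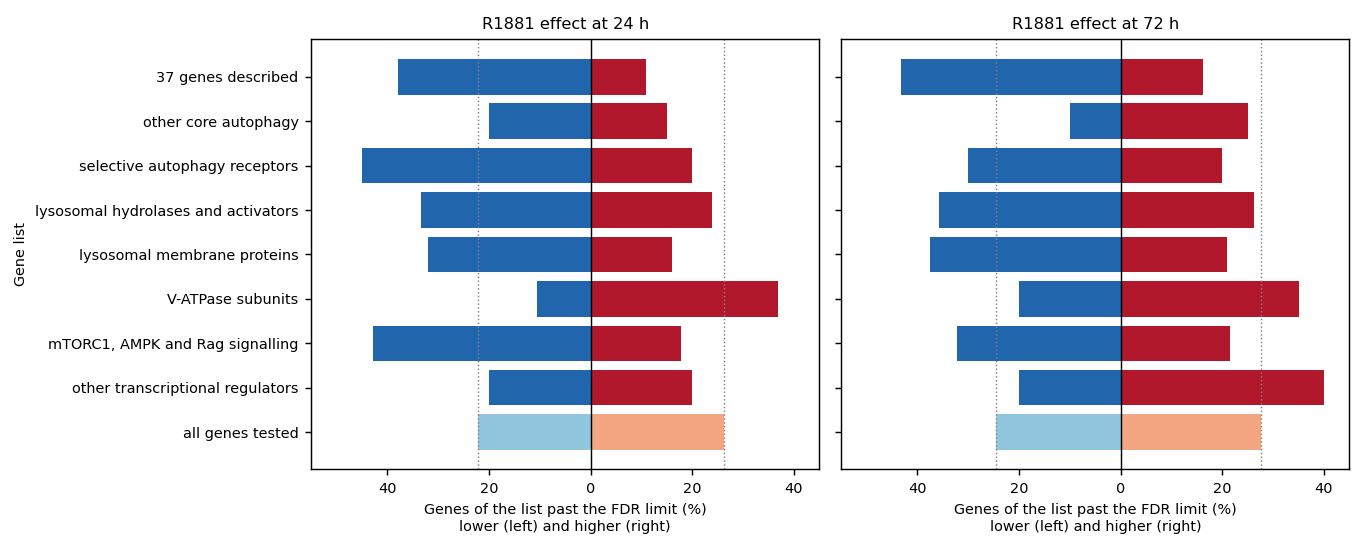
Percent of each gene list that passed the FDR limit with R1881 alone at 24 h (left) and 72 h (right), lower to the left and higher to the right of 0, with all genes tested in pale colours and dotted lines. Of the 37 genes, 37.8% fell at 24 h and 43.2% at 72 h, against 22.1% and 24.6% of all genes, and the V-ATPase subunits reach furthest to the right at 24 h with 36.8%.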

How the data were processed

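RNA was sequenced from LNCaP cells in 28 libraries. Per the labels, the authors' processing notes name FastQC, cutadapt 2.8, STAR 2.7.2b and featureCounts of Subread 2.0.3, with the builds GRCh38.p13 and GRCm39. The annotation release and the strand setting of counting are not given in the sources used here. The values deposited by the authors are estimated counts per gene, of which 16.9% of those above 0 were not whole, and they were rounded. Reads shared between overlapping genes may therefore be split, which was not tested. Counts were not whole in 0% of libraries for WIPI1 and in 3.57% for ATG101, against 75% for CTSD and 53.6% for GABARAP. Columns were tied to groups by the sample labels.

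The 24 h libraries (n = 3 per group) and the 72 h libraries (n = 4 per group) were fitted separately, and contrasts between experiments came from 1 fit of all 28. Genes were filtered with filterByExpr (minimum count 10, minimum total 15), scaled by TMM and tested with edgeR 4.0.16 (quasi-likelihood, limma 3.58.1, R 4.3.3), with Benjamini-Hochberg adjustment over the 15963, 16084 or 16685 genes tested. The SE is the size of the log2 fold change over the root of F. All replicate pairs differed by more than counting noise (chi-square per degree of freedom 1.20 to 2.48), and the biological coefficient of variation was 2.72% at 24 h and 2.38% at 72 h. Positions and exon lengths are from GENCODE 29, promoter windows from RefSeq.

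Genes past both limits in a comparison within an experiment, and the 4 with the largest mean inhibitor effect of one sign, are given by library. The other genes of the 37 are given by role, and in the further lists up to 4 genes past both limits in the same direction with R1881 in both experiments, and up to 2 for the inhibitors, are named. The 37 genes and the lists were chosen with earlier results of these data known. Alternatives were DESeq2 size factors, library totals, no filter on low counts, DESeq2 1.42.0, a replicate block, 1 fit of all libraries, other limits and leaving out each library. Some genes of the marker and pathway lists are not reported here by name.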

Additional observations from a re-analysis of the deposited data

Results flagged for a closer look

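In vehicle at 72 h, WIPI1 had its lowest library in replicate 1, with 5.10 CPM against 5.70 to 5.75 CPM in the others. The gap was 0.932 of the range of the group, above Dixon's critical value for 4 samples. This was 1 of 32 groups examined, and chance flags about 1 in 20.

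The response to an agent differed between conditions past both limits for 3 genes. For ATG101 the effect of Senexin B was higher with R1881 than without it by 0.61 on the log2 scale at 24 h (edgeR interaction, adjusted p = 0.000242). For ATG3 the effect of SNX631 was lower with R1881 than without it, with an interaction of -0.59 at 72 h (adjusted p = 1.09e-11). For TFEB the effect of R1881 at 72 h exceeded that at 24 h by 0.82 (adjusted p = 0.00509), between experiments that differed in time, androgen dose and inhibitor together.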

How the results depend on the processing

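No alternative reversed the direction of any of the 148 values of the 37 genes (1 gene in 1 comparison each) that passed the FDR limit. Of 3073 such values under the alternatives, 3035 kept their call, or lack of a call, past both limits, 27 lost a call and 11 gained one. Whether a value past the FDR limit alone still passed it under the alternatives was not counted. Without the fold limit, the numbers of the 37 genes called were 18 for R1881 at 24 h, 20 with Senexin B present, 22 for R1881 at 72 h and 22 with SNX631 present. For Senexin B they were 13 without and 12 with R1881, for SNX631 9 and 17, and for the interactions 2 at 24 h and 6 at 72 h. For R1881 between the experiments there were 4, and for the difference between inhibitors 1 without and 2 with R1881. Over all genes tested, the shares past the FDR limit upward and downward were 1.08% and 1.01% for the 24 h interaction. For the 72 h interaction they were 3% and 4.1%, and for R1881 between the experiments 3.5% and 4.07%. For the difference between inhibitors they were 1.13% and 1.18% without and 1.53% and 1.11% with R1881. Shares for the other comparisons are given above. With library totals alone, Senexin B called 0 genes without and 0 with R1881, and with no filter on low counts the 72 h interaction called 0, in each case because ATG101 or ATG3 fell just under the fold limit. Library totals moved the median of all genes by R1881 at 72 h to -0.12. Under that scaling 4 more values were past both limits: ATG2A at -0.59 with R1881 at 24 h, RB1CC1 at -0.61 with R1881 under Senexin B, ATG10 at -0.66 with R1881 at 72 h and ATG14 at -0.64 with R1881 under SNX631. Leaving out 1 library gave 0 to 1 gene for Senexin B with R1881, for both interactions and for R1881 between the experiments. The replicate numbers were not taken to pair the libraries. Mean correlations of the deviations of same-numbered libraries lay between -0.0185 and 0.0336, none near 0.1. Yet 9 of 12 libraries at 24 h and 3 of 16 at 72 h matched their own number best. The number expected without pairing was not computed, so pairing at 24 h was not excluded. With the replicate block the counts past both limits were 2, 4, 1, 1 and 1 at 24 h (R1881, R1881 with Senexin B, Senexin B without and with R1881, interaction) and 4, 6, 1, 0 and 1 at 72 h in the corresponding order, which changed no count. TFEB, with as few as 34 counts in a library, is limited by depth.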
